A study of Homo sapiens with 4 samples.

Results

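The transcripts of 10 genes were followed in LASCPC-01 cells, a neuroendocrine prostate cancer (NEPC) line that was made by combining NMYC with activated AKT1. Of these, 9 are immediate early genes (FOS, FOSB, JUN, JUNB, JUND, EGR1, IER2, DUSP1 and NR4A1) and the other is GEM, a small GTPase gene induced by cell activity. All 10 symbols were found among the 16376 genes of the expression table, and all 10 had a mean level of at least 0.1 FPKM (fragment counts corrected for gene length and library depth). The genes were picked by name with the fluoxetine response of these libraries already known, and GEM was picked for its fall, so the PBS to fluoxetine values of the 10 genes are a description and support nothing by themselves.

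Cells of this 1 line, labelled wild type, received either PBS or fluoxetine, an antidepressant that blocks serotonin reuptake, and 2 libraries were sequenced per group. The paper's text places the sequenced cells at 5 µM fluoxetine for 48 h, and the line was grown in HITES medium with serum, whereas the labels read day 3, give no dose, and carry the letters PP in the titles of the fluoxetine samples. No separate cultures are named for the 2 libraries of a group, so p-values measure the spread between these libraries, which may be technical. The time from the last change of medium to lysis is not given in the sources used here.

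The neuroendocrine label was checked against marker genes. NCAM1 had 44.3 to 52.0 FPKM, INSM1 21.7 to 24.2 FPKM and ENO2 2.07 to 3.10 FPKM over the 4 libraries, and the driver MYCN had 323.1 to 386.5 FPKM. The granule genes CHGA and CHGB were under 0.1 FPKM in every library, and SYP lay between 0.142 and 0.629 FPKM. Of 7 markers of other cells, PTPRC and PECAM1 had at most 7 reads in any library, while the collagen gene COL1A1 had 1.83 to 2.75 FPKM. The summed level of these 7 markers was 2.91 and 2.99 FPKM with PBS and 2.06 and 3.07 FPKM with fluoxetine. Whole reads could be recovered from the FPKM, and the depth of a library was between 32873603 and 34831389 reads. For a gene of 1 kilobase, 1 read was then worth 0.0287 to 0.0304 FPKM.

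Immediate early genes are switched on within minutes of a stimulus, without new protein synthesis, by factors that already sit in the nucleus. SRF with its ternary complex partners binds CArG boxes, and CREB binds the cyclic AMP response element, in response to MAP kinase, calcium and cyclic AMP signals. Their mRNAs are short-lived, in part through AU-rich elements in the 3′ untranslated region. FOS and JUN proteins pair to form the transcription factor AP-1, EGR1 is a zinc finger factor, NR4A1 an orphan nuclear receptor, IER2 a nuclear regulator and DUSP1 a phosphatase that shuts off MAP kinases. GEM belongs to the RGK family of GTPases, which bind the beta subunits of voltage-gated calcium channels and lower channel activity, and GEM also restrains ROCK signalling.

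RefSeq promoter windows on GRCh38.p14, reaching from 250 bases before to 50 bases after the transcript start, were found for 9 of the 10 genes and not for GEM. TGACG, the core letters of the cyclic AMP response element, was searched on both strands and was found in the windows of 8 of the 9 genes, all but NR4A1, and in 24.6% of the 35116 windows of all genes. The full palindrome TGACGTCA, which holds TGACG on both strands, was found for DUSP1 and JUND and in 1.85% of all windows. The CArG box was found for EGR1 alone among the 9 and in 1.29% of all windows. TATAAA in the transcribed direction was found for FOS, FOSB, JUNB and DUSP1 and in 7.33% of all windows, and the AP-1 letters TGACTCA were in none of the 9 and in 4.95% of all windows. A match describes letters in a window, and no binding was measured. Sites farther than 250 bases before the start were not searched, so a gene without a match may have the letters farther upstream.

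The 150 bases before the start are shown for 6 genes to place these letters, with FOS, FOSB and EGR1 taken as the genes of lowest level and JUN, JUNB and DUSP1 as genes of higher level. Each runs 5′ to 3′ toward the start, and capitals mark TGACG (or CGTCA on the other strand), the CArG box and TATAAA. On the plus strand these are chr14:75278678-75278827 for FOS, chr19:45467846-45467995 for FOSB, chr19:12791336-12791485 for JUNB and chr5:138465329-138465478 for EGR1. On the minus strand they are chr1:58784048-58784197 for JUN and chr5:172771196-172771345 for DUSP1.
FOS: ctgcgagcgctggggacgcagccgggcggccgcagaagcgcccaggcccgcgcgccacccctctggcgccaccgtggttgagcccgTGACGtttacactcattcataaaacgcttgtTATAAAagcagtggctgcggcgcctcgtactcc
FOSB: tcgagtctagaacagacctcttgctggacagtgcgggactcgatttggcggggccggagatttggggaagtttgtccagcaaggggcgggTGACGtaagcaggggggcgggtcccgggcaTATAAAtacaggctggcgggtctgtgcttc
EGR1: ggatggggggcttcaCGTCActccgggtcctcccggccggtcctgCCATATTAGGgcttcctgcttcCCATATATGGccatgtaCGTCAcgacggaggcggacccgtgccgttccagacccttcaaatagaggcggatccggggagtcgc
JUN: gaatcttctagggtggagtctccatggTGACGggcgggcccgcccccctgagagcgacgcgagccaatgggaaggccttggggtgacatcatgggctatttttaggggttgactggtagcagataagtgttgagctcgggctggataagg
JUNB: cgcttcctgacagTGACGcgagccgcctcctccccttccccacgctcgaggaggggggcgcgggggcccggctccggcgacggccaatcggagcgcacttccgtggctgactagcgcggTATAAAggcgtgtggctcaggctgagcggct
DUSP1: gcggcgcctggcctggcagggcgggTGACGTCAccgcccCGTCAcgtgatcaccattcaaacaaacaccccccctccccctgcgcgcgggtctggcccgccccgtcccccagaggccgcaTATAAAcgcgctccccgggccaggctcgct
FOS and FOSB were alike in layout, with TGACG beginning 64 and 60 bases before the start and TATAAA beginning 33 and 30 bases before it. EGR1 had its CArG boxes 105 and 83 bases before the start, between CGTCA at 135 and 66 bases.

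The genes lie on 6 chromosomes of GRCh38 in the GENCODE 29 annotation. FOSB, JUNB, JUND and IER2 are on chromosome 19, from 45467995 to 45475179, 12791496 to 12793315, 18279760 to 18281622 and 13150415 to 13154908. EGR1 and DUSP1 are on chromosome 5, from 138465490 to 138469315 and 172768090 to 172771195. JUN is on chromosome 1 from 58780788 to 58784327, NR4A1 on chromosome 12 from 52022832 to 52059507, FOS on chromosome 14 from 75278774 to 75282230 and GEM on chromosome 8 from 94249253 to 94262350. Their median span was 3683 bases, against 32031 bases for the 12347 tested genes with a protein-coding transcript in GENCODE. In the transcript with the longest coding sequence, JUN, JUNB, JUND and IER2 had 1 exon, as did 2.32% of those tested genes. ATTTA, the core of AU-rich elements, occurred at least 2 times in the 3′ untranslated region of 7 of the 10 genes and of 49.7% of tested genes, with 5 in FOS, 5 in GEM and 0 in IER2. FOSB lies wholly within ERCC1 and JUNB wholly within HOOK2, both on the opposite strand, and IER2, DUSP1 and NR4A1 overlap an opposite-strand noncoding gene. These overlaps are of whole gene spans, exons were not compared, and the strand setting of the counting is not stated. Whether reads of these partners entered or lowered the values of the 5 genes was not tested.

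The level of the genes, as FPKM, ran over more than 2 orders of magnitude. JUND was highest, with 77.4 and 75.5 FPKM under PBS and 76.4 and 72.4 FPKM under fluoxetine. JUNB (39.5 to 48.4 FPKM over the 4 libraries) and IER2 (42.4 to 44.7 FPKM) came next, and their ranges overlapped. JUN lay below both at 32.2 to 36.0 FPKM, followed by NR4A1 at 9.0 to 10.8 FPKM and DUSP1 at 3.36 to 4.35 FPKM. GEM lay between 0.473 and 2.04 FPKM. EGR1, FOS and FOSB, which are near the floor in many resting cells, had the lowest levels at 0.0989 to 0.273 FPKM, and their ranges overlapped each other. By rank of mean FPKM among the 16376 genes, JUND was 827th from the top and FOSB 12173rd.

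**Figure D1:**
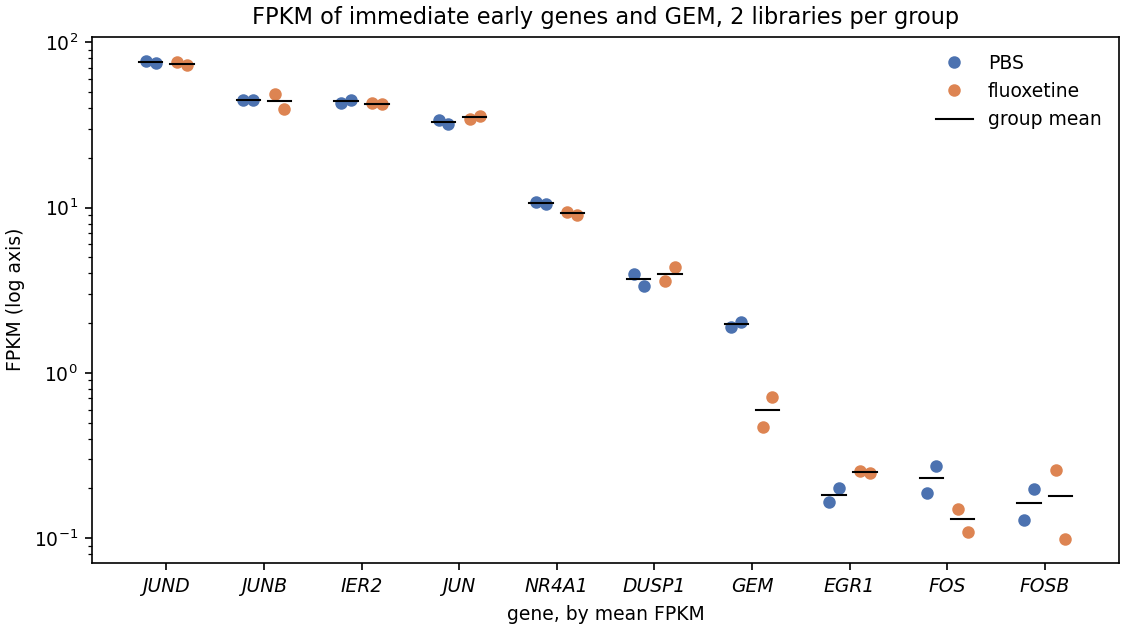
FPKM of the 10 genes in each library, on a log axis, ordered by mean FPKM. Points are the 2 libraries of a group (PBS blue, fluoxetine orange) and lines are group means; GEM, at 1.90 and 2.04 FPKM with PBS and 0.473 and 0.715 FPKM with fluoxetine, shows the widest gap between groups, while JUND, IER2 and JUN lie almost level.

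Across the table, 30 of 12663 genes tested had an adjusted p under 0.05 (limma on log2(FPKM + 0.1), Benjamini-Hochberg adjustment), which is 0.237%, with 0.213% lower in fluoxetine. Of the 10 genes, 1 passed, namely GEM, and the other 9 did not. Nothing is read from this count, because GEM was picked on this contrast. The fluoxetine libraries were both lower than either PBS library for 4 of the 10 genes (GEM, FOS, IER2 and NR4A1) and for 24.8% of all genes tested, and above both for 2 (JUN and EGR1) and for 16.7% of all genes tested. The median log2 fold change was -0.04 over the 10 genes and -0.02 over all genes tested, of which 56.5% had a negative one. A two-sided exact permutation test of 1 gene with 2 libraries against 2 cannot go below p = 0.333.

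GEM had 1.90 and 2.04 FPKM in the PBS libraries, from 148 and 168 reads. In the fluoxetine libraries it had 0.473 and 0.715 FPKM, from 39 and 59 reads. The groups did not overlap, and the mean was 3.32-fold lower in fluoxetine, at 0.594 ± 0.171 FPKM against 1.97 ± 0.0989 FPKM with PBS (SD, n = 2). Its log2 fold change was -1.60 (standard error, SE, 0.21; 95% interval -2.05 to -1.14, limma adjusted p = 0.00704). In these bulk samples, fewer cells with GEM mRNA and less of it per cell cannot be told apart. The counting interval of the GEM reads, an exact 95% Poisson interval that covers counting error only, was 27.7 to 53.3 for fluoxetine replicate 1 and 44.9 to 76.1 for fluoxetine replicate 2. It was 125.1 to 173.9 and 143.6 to 195.4 for the PBS libraries. With fluoxetine replicate 1 left out, the lower of its group, the log2 fold change of GEM was -1.34 (adjusted p = 0.0552), and it was -1.65 and -1.55 without PBS replicate 1 and PBS replicate 2 (adjusted p = 0.233 and 0.405). Without fluoxetine replicate 2 it was -1.85 (adjusted p = 0.0160). GEM also lost its call without the filter on low values (adjusted p = 0.650) and without the variance trend (adjusted p = 0.233), where its fold change stayed at -1.60.

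**Figure D2:**
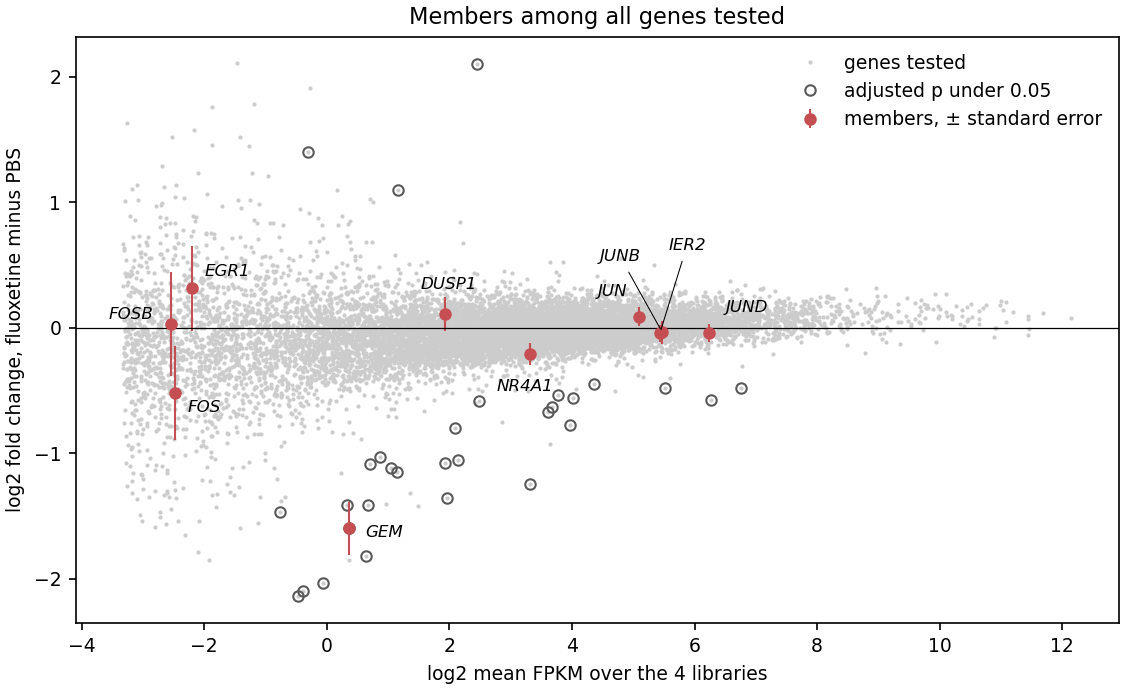
Log2 fold change (fluoxetine minus PBS) against log2 mean FPKM for the 12663 genes tested (grey), with genes at an adjusted p under 0.05 ringed and the 10 genes in red with their standard error. GEM lies at -1.60 among the ringed genes; the other 9 lie between -0.52 (FOS) and 0.32 (EGR1), inside the grey cloud at their level.

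Of the AP-1 genes, JUN had 34.1 and 32.2 FPKM with PBS and 34.4 and 36.0 FPKM with fluoxetine. Both fluoxetine libraries were just above both PBS libraries, and the log2 fold change of 0.09 had a 95% interval of -0.07 to 0.25 (limma adjusted p = 0.725). JUNB had 44.7 and 45.0 FPKM with PBS and 48.4 and 39.5 FPKM with fluoxetine, so that the PBS libraries lay between the fluoxetine libraries. Its log2 fold change was -0.04 (95% interval -0.24 to 0.16), and it turned to 0.11 without fluoxetine replicate 2. JUND, the AP-1 subunit that is made most steadily in many cells, overlapped between the groups as well, with a log2 fold change of -0.04 (95% interval -0.19 to 0.11). The 95% intervals of these 3 genes stayed within 0.25 of 0 on the log2 scale. They rest on 2 libraries per group, whose spread may be technical, so they set no bound on a change between separate cultures.

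FOS, the prototype of the class, had 0.188 and 0.273 FPKM with PBS and 0.150 and 0.109 FPKM with fluoxetine. These values rest on 13 and 20 reads with PBS and on 11 and 8 reads with fluoxetine. The 95% Poisson interval of the highest of them, 12.2 to 30.9 reads, overlaps that of the lowest, 3.45 to 15.8 reads. Both fluoxetine libraries lay below both PBS libraries, and the log2 fold change of -0.52 had an SE of 0.37 (95% interval -1.33 to 0.29, limma adjusted p = 0.678). FOSB had 0.129 and 0.198 FPKM with PBS and 0.259 and 0.0989 FPKM with fluoxetine, so the fluoxetine libraries held both the highest and the lowest value. Its log2 fold change of 0.03 had a 95% interval of -0.87 to 0.93, and the sign turned after rescaling to TPM (-0.020) and without PBS replicate 1 (-0.16) or fluoxetine replicate 1 (-0.39). The added 0.1 FPKM shrinks the fold changes of genes this low, and FOS ranged from -0.79 with limma voom on the recovered reads to -0.12 with 1 FPKM added, and was -0.33 without PBS replicate 2. With 0.01 FPKM added, FOS had a log2 fold change of -0.78 (SE 0.57). A change of either gene was not detectable at this depth, which leaves wide room for one.

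JUN family transcripts outnumbered FOS family transcripts per length in every library. The summed level of JUN, JUNB and JUND was 156.2 and 152.7 FPKM with PBS and 159.2 and 147.9 FPKM with fluoxetine, of which JUND made up at most 49.6%. The summed level of FOS and FOSB was 0.317 and 0.472 FPKM with PBS and 0.409 and 0.208 FPKM with fluoxetine. With FOSL1 and FOSL2, the other FOS family genes, added, the JUN family sum was 45.1 and 39.7 times the FOS family sum with PBS and 64.4 and 61.0 times with fluoxetine. Both fluoxetine ratios were above both PBS ratios, while the JUN family sums and the FOS and FOSB sums each overlapped between the groups. The FOSL1 and FOSL2 sums did not overlap. Both genes come from a list chosen with earlier results of these data known, so the ratios are a description. Neither FOSL1 nor FOSL2 passed the test (limma adjusted p = 0.167 and 0.511). FOSL1 and FOSL2 carried most of the FOS family sum, at 3.14 and 3.37 FPKM with PBS and 2.06 and 2.22 FPKM with fluoxetine.

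EGR1 had 0.165 and 0.202 FPKM with PBS and 0.256 and 0.247 FPKM with fluoxetine, from 17, 22, 28 and 27 reads. Both fluoxetine libraries lay above both PBS libraries, the opposite side from FOS. The log2 fold change was 0.32 with an SE of 0.34 (95% interval -0.42 to 1.05, limma adjusted p = 0.787), and it ranged from 0.081 to 0.46 over 14 alternatives. NR4A1 had 10.8 and 10.6 FPKM with PBS and 9.43 and 9.0 FPKM with fluoxetine, from 2844, 2949, 2637 and 2519 reads. The groups did not overlap, and the log2 fold change of -0.21 had a 95% interval of -0.40 to -0.02 before adjustment and an adjusted p of 0.552. The gene length behind the FPKM of NR4A1 came to 8037 bases, which is 2.29 times its GENCODE transcript with the longest coding sequence, so NR4A1 ranks lower per length than it would on that transcript.

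IER2 had 43.1 and 44.7 FPKM with PBS and 42.7 and 42.4 FPKM with fluoxetine, for a log2 fold change of -0.05 (95% interval -0.20 to 0.11, limma adjusted p = 0.860). Its fluoxetine libraries were below both PBS libraries by a margin smaller than the gap between the PBS libraries themselves. DUSP1 had 3.99 and 3.36 FPKM with PBS and 3.58 and 4.35 FPKM with fluoxetine, and the groups overlapped. Its log2 fold change was 0.11 (95% interval -0.19 to 0.40), and it turned to -0.015 without PBS replicate 2 and to -0.030 without fluoxetine replicate 2.

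The spread between the 2 libraries of a group was compared with the counting error of the reads. The genes were picked with the contrast known, and its test uses this spread, so the comparison is a description. Over the 20 pairs (10 genes in 2 groups), 6 differed by more than 2 counting errors, as did 43.4% of the 25064 pairs of all tested genes with reads in every library. The 10 genes thus showed no excess of such pairs. Genes with a mean of at least 10 FPKM had a median absolute replicate difference of 0.0787 on the log2 scale in PBS and 0.0818 in fluoxetine. The JUNB pair in fluoxetine had the most counting errors of the 20, and replicate 2 was 0.29 lower than replicate 1 on the log2 scale, or 7.60 counting errors. Among the 5576 genes with a mean of at least 10 FPKM, 2.73% had a replicate difference that large in fluoxetine. In PBS, the JUNB libraries differed by 0.01 on the log2 scale. FOSB in fluoxetine differed by 1.39 on the log2 scale (2.95 counting errors), from 34 reads in replicate 1 to 13 in replicate 2. DUSP1 differed by 1.92 counting errors in PBS and 2.28 in fluoxetine, with opposite signs. JUN in PBS and JUND in fluoxetine differed by 2.45 and 2.64 counting errors, which at their depth is 0.08 on the log2 scale for each. For GEM, the PBS libraries differed by 0.10 on the log2 scale, or 0.630 counting errors, and the fluoxetine libraries by 0.60, or 2.0 counting errors.

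The other AP-1 subunits were mostly lower in fluoxetine but none passed the test. Of 12 listed, 10 were tested, 9 had a negative log2 fold change, 0 had an adjusted p under 0.05, and the median was -0.30, beside -0.02 over all genes tested. The fluoxetine libraries were both lower than either PBS library for 7 of the 10, against 24.8% of all genes tested. The list was chosen with earlier results of these data known, so these counts are a description. FOSL2 had 2.36 and 2.58 FPKM with PBS and 1.73 and 1.93 FPKM with fluoxetine, for a log2 fold change of -0.41 (SE 0.14, limma adjusted p = 0.511). ATF3, a stress-induced partner of JUN, had a log2 fold change of -0.30 (SE 0.12, adjusted p = 0.538), and the small MAF genes MAFG and MAFK, the highest of the list, had 0.09 and -0.02. FOSL1, named after its values were seen, had 0.786 and 0.795 FPKM with PBS and 0.338 and 0.287 FPKM with fluoxetine, from 44, 47, 20 and 17 reads. Its log2 fold change was -1.11 (SE 0.25, adjusted p = 0.167).

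Among 30 other immediate early genes, 26 were tested, 16 had a negative and 10 a positive log2 fold change, and 0 had an adjusted p under 0.05. Their median was -0.05. BTG2, an antiproliferative gene, had the highest level at 66.2 to 70.5 FPKM and a log2 fold change of -0.07 (95% interval -0.22 to 0.09). MCL1, a survival gene of the BCL2 family, overlapped between the groups (-0.01). ZFP36L1, which binds AU-rich elements and speeds mRNA decay, had 14.4 and 17.6 FPKM with PBS and 11.7 and 11.6 FPKM with fluoxetine, for a log2 fold change of -0.44 (SE 0.10, limma adjusted p = 0.168). CCN2, a matricellular gene, had a log2 fold change of -0.46 (SE 0.18, adjusted p = 0.538). The EGR and NR4A relatives, named after their values were seen, were low: EGR2 had at most 1 read and EGR3 at most 4 reads in any library. NR4A3 had 59 reads in each PBS library and 31 and 35 reads in the fluoxetine libraries. Its log2 fold change was -0.59 (SE 0.34, 95% interval -1.34 to 0.16, limma adjusted p = 0.620). NR4A2 had 2.15 to 2.40 FPKM.

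The factors that switch these genes on were all measurable. Of 17 listed (SRF, ELK, MRTF, CREB, CRTC and MEF2 genes with their cofactors), 17 were tested, 15 had a negative log2 fold change (56.5% of all genes tested did), 0 had an adjusted p under 0.05, and the median was -0.11. For 9 of them both fluoxetine libraries were lower than either PBS library, against 24.8% of all genes tested. This list, too, was chosen with earlier results of these data known. SRF had 38.2 and 40.2 FPKM with PBS and 38.4 and 38.4 FPKM with fluoxetine, for a log2 fold change of -0.03 (95% interval -0.18 to 0.13). MEF2D, next highest, had -0.13, and the largest differences were those of MRTFB (-0.26, standard error 0.11) and ELK4 (-0.23, standard error 0.12). Of 18 upstream kinases, 17 were tested and 0 had an adjusted p under 0.05, with a median of -0.05. The calcium-dependent kinase genes CAMK2D and CAMK4, named for the size of their change, each had a log2 fold change of -0.23. Their SE was 0.09 and 0.10 (limma adjusted p = 0.552 and 0.566). CAMK2B, named for its level, had 0.05. CAMK2G had 0.03 and CAMK1, at a mean of 0.428 FPKM, had -0.52 (SE 0.29).

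Repressors and decay factors of the members also had no gene with an adjusted p under 0.05. Of the 4 repressor genes, NAB1, a corepressor of EGR proteins, had a log2 fold change of -0.01, and the ubiquitin ligase genes FBXW7 and COP1, both known to target JUN, had -0.16 and 0.13. The median of the 4 was -0.02. Of the 6 AU-rich decay genes, 5 had a negative log2 fold change and the median was -0.04. HNRNPD and KHSRP, the highest of them, had -0.04 and 0.01, and ZFP36 had -0.17.

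The RGK family and the known partners of GEM were taken next. Of 16 RGK GTPase and partner genes, 13 were tested, 0 had an adjusted p under 0.05, and the median was -0.10. A negative log2 fold change was seen for 10 of the 13, against 56.5% of all genes tested. The fluoxetine libraries were both lower than either PBS library for 8 and above both for 1. Over all genes tested these shares were 24.8% and 16.7%. The list was chosen with earlier results of these data known, so these counts are a description. RRAD, another RGK gene, named like REM2 after its values were seen, was read 7 and 4 times with PBS and 0 times in both fluoxetine libraries. A count of 0 allows up to 3 reads by a 1-sided 95% Poisson limit, unlike the intervals given for GEM and FOS. RRAD was too low to test. REM2 was read 1 and 17 times with PBS, then 8 and 9 times with fluoxetine. The calcium channel beta subunit gene CACNB1 had a log2 fold change of -0.24 (95% interval -0.62 to 0.14), ROCK2 had -0.24 (95% interval -0.48 to 0.01) and RHOA 0.03. CALM2, one of the calmodulin genes whose product binds GEM, had 215.6 and 221.2 FPKM with PBS and 256.9 and 235.2 FPKM with fluoxetine (log2 fold change 0.17, limma adjusted p = 0.579).

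Heat shock genes, which respond as fast as immediate early genes to handling and to protein stress, were followed beside them. All 7 were tested, 5 had a positive log2 fold change, 0 had an adjusted p under 0.05, and the median was 0.18. Over all genes tested, 56.5% had a negative one. The fluoxetine libraries were both above either PBS library for 4 of the 7 and below both for 0. Over all genes tested these shares were 16.7% and 24.8%. This list, too, was chosen with earlier results of these data known. HSPA1A and HSPA1B, near-identical genes whose reads cannot be told apart with certainty, had log2 fold changes of 0.47 (SE 0.16) and 0.25 (SE 0.08), with an adjusted p of 0.511 and 0.442 from limma. HSPA8 had 1915 and 2137 FPKM with PBS and 2333 and 2321 FPKM with fluoxetine, and HSP90AA1 overlapped between the groups. Their part in the values of the 10 genes was not tested.

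The pattern of GEM over the 4 libraries was set beside that of 10573 other genes with a mean of at least 1 FPKM, by the distance between log2 values centred on each gene's own mean. The 5 nearest were STC1 (distance 0.246), SLC16A3 (0.258), NDRG1 (0.264), PPFIA4 (0.472) and ALDOC (0.518). STC1 had 1.68 and 2.02 FPKM with PBS and 0.475 and 0.824 FPKM with fluoxetine, and SLC16A3, a lactate exporter gene, had 2.53 and 2.43 FPKM with PBS and 0.490 and 0.801 FPKM with fluoxetine. STC1, SLC16A3 and NDRG1 were, like GEM, lower in fluoxetine replicate 1 than in fluoxetine replicate 2. With 4 libraries this likeness is a description, and all 5 genes were lower in fluoxetine, as a small distance to GEM requires. The shared order of the fluoxetine libraries is favoured by the same choice, so it is no separate observation.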

How the data were processed

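RNA of 2 PBS and 2 fluoxetine samples was sequenced as paired-end reads, and the authors deposited 1 FPKM value per gene and library. The submitters' processing notes name fastp, HISAT2, HTSeq and GRCh38, without versions or settings, and the annotation is not given in the sources used here. The kit is TruSeq Stranded mRNA by the labels and VAHTS Universal by the methods, and the strand setting of the counting is not stated. Samples were grouped by the treatment label. DESeq2, the study's test, was not used, since the deposited values are not counts, and reads recovered from them entered only an alternative and the counting errors. Instead, limma 3.58.1 in R 4.3.3 (eBayes with a variance trend) was run on log2(FPKM + 0.1), keeping genes whose mean reached 0.1 FPKM. The added 0.1 shrinks the fold changes of low genes.

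Whole reads were solved from the FPKM as the smallest whole numbers, within 0.004, that gave the ratios between libraries and a gene length in whole bases. This solved 16001 of 16080 genes above 0, or 99.5% of values above 0, and true reads can be multiples of these. On simulated FPKM of 2941 genes, 95.0% were recovered exactly. These were drawn from solved genes, with their recovered reads, lengths and depths taken as true. The simulation therefore cannot show that the depths or reads of the real libraries are right. Listed genes took 27510305 and 29151063 reads under PBS, then 28892910 and 29139773 under fluoxetine. Libraries of a group differed by more than counting noise (chi-square over its degrees of freedom was 8.61 in PBS, 10.5 in fluoxetine), and no library was counted as a copy.

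The members and lists were chosen with earlier results of these data known. Genes named from each list were those with an adjusted p under 0.05, the 2 with the highest mean FPKM, and the 2 with the largest change among those averaging 1 FPKM or more, and the 5 genes nearest in pattern to GEM and to FOS. Promoter windows came from RefSeq (GRCh38.p14) and gene structures from GENCODE 29. Other steps used Python 3.11.15, scipy 1.17.1, pandas 2.3.3, matplotlib 3.10.9 and numpy 2.4.6. All 4 value columns matched 1 sample each. A few genes that this rule or the marker lists would name are not reported here.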

Additional observations from a re-analysis of the deposited data

How the results depend on the processing

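The 30 genes with an adjusted p under 0.05 became 0 without the filter on low values (1175 at an unadjusted p under 0.05), 0 without the variance trend (933 at an unadjusted p under 0.05), 16 with quantile normalization and 92 with limma voom on the recovered reads. With the replicate number as a block they became 64. The pairing check gave r = 0.035 over all tested genes, 0.058 from a mean of 1 FPKM and 0.101 from a mean of 10 FPKM between the deviations of same-numbered libraries. With 2 pairs and no shared batch in the labels, the numbers were not taken as pairs. With the block, GEM had an adjusted p of 0.000495 and the other 9 members stayed above 0.05, while ZFP36L1, in the lists of other immediate early genes and of AU-rich decay genes, went from 0.168 to 0.0413. With 1 library left out, the count over all genes ranged from 2 to 12, and the count of members called from 0 to 1. The count of members called was also 0 without the filter on low values and 0 without the variance trend, and in these settings the gene lost was GEM. The cause was not tested.

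The log2 fold change of GEM was negative in all 15 alternatives, from -1.85 to -0.90, with an adjusted p under 0.05 in 10 of them. None of the other 9 members had one in any alternative, and FOS ranged from -0.79 to -0.12. FOSB turned to -0.020 after rescaling to TPM. With 1 library left out, FOSB ranged from -0.39 to 0.46, JUNB from -0.18 to 0.11 and DUSP1 from -0.030 to 0.24. Where 1 library was left alone in its group, its spread was assumed to be that of the other group. A minimum mean FPKM of 1 removed FOS, FOSB and EGR1 from the test. Their 8 to 34 reads per library limit them to large differences.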

Other observations

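The genes whose pattern over the 4 libraries was nearest to that of FOS were GDF15 (distance 0.0569), KREMEN2 (0.115), H3C12 (0.134), ZDHHC1 (0.143) and PHLDA2 (0.164). GDF15, a stress-induced cytokine gene, had 3.82 and 5.0 FPKM under PBS, then 3.23 and 2.84 FPKM under fluoxetine. Its log2 fold change was -0.52 (limma adjusted p = 0.329). The order of the FOS libraries themselves rests on 8 to 20 reads each.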
